A study of Rattus norvegicus with 21 samples.

Results

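The comparison described here is the response of the parental NBTII line to 2 h of the fibroblast growth factor FGF1. Its members are 3 of the 21 arrays of the series, namely the 2 NBTII arrays at 2 h (replicates 1 and 2) and the single NBTII array at 0 h. They were chosen by their labels, with earlier results of these data known. NBTII is a rat bladder carcinoma line of epithelial character that is used as a model of growth-factor-driven epithelial-mesenchymal transition, and NBTII-FGFR1 is a derivative named for the FGF receptor FGFR1. The series followed both lines at 0, 0.5, 2, 6, 24 and 48 h on an Affymetrix rat expression array, whose values are log2 signals per probe set, a probe set being a group of probes for one transcript. The NBTII group at 2 h received FGF1 at 20 ng/ml with heparin, the NBTII array at 0 h is labelled as control cells, and the NBTII-FGFR1 arrays used for comparison carry the same times and agents. The labels do not say whether NBTII-FGFR1 is 1 clone, which promoter drives the receptor, or whether cells were starved before FGF1.

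No NBTII sample at 2 h lacks FGF1, so FGF1, heparin, handling and the passage of 2 h cannot be told apart. The 0 h condition is 1 array, so the spread comes from the 9 pairs of replicate arrays elsewhere in the series, and the 0 h array is assumed to vary like them. The labels do not say whether replicates are separate cultures, so the p-values measure the spread between arrays, which may be technical.

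FGF1 is a secreted ligand that binds FGF receptors together with heparan sulfate or heparin. The activated receptor signals through adaptor proteins to the RAS-ERK cascade, and ERK switches on a first set of immediate-early genes, many of them transcription factors that need no new protein synthesis for their induction. Later-induced genes include inhibitors that damp the same cascade, ligands of other receptors, and secreted or membrane proteases that act on the cell surface and matrix.

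Promoters of 6 genes that rose at 2 h are shown because each holds, close to its start site, the letters of an element that growth-factor-induced transcription factors are known to bind. The windows are from RefSeq on build GRCr8, run from 250 bases before to 50 bases after the annotated start, and are written 5′ to 3′ on the gene's own strand with matched motifs in capitals. The motifs searched on both strands were the AP-1 element TGAGTCA (reverse strand TGACTCA), bound by FOS-JUN dimers, the cyclic AMP response element TGACGTCA, the CArG box, bound by serum response factor, and the EGR site GCGGGGGCG. Plaur, Mmp13 and Lama3 hold AP-1 elements, Dusp5 holds 2 adjoining CArG boxes, Zfp36 holds an EGR site and a CArG box, and Areg holds a cyclic AMP response element.

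Plaur chr1:89181113-89181412, plus strand: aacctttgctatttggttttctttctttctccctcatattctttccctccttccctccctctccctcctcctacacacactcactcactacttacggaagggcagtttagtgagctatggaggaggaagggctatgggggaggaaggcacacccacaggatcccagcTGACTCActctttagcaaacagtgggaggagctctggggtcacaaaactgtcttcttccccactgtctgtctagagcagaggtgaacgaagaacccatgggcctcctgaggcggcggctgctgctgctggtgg

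Mmp13 chr8:12782579-12782878, plus strand: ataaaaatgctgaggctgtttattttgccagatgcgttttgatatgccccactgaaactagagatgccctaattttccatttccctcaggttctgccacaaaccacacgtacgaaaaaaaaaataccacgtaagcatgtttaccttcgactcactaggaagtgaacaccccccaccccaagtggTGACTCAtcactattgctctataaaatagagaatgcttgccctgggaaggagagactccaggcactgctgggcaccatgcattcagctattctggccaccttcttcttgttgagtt

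Lama3 chr18:3952517-3952816, plus strand: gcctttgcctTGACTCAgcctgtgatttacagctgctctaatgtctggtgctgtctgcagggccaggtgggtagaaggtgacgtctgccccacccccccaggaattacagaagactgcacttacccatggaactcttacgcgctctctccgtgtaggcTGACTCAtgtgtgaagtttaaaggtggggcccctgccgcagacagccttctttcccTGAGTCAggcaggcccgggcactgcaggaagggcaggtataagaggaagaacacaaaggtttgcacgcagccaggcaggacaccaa

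Dusp5 chr1:262543524-262543823, plus strand: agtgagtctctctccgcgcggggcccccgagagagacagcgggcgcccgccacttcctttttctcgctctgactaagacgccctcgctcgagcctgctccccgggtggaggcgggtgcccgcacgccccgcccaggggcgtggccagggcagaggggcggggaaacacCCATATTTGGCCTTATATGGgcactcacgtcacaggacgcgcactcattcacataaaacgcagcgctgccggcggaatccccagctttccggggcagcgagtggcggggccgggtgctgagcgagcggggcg

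Zfp36 chr1:92799059-92799358, minus strand: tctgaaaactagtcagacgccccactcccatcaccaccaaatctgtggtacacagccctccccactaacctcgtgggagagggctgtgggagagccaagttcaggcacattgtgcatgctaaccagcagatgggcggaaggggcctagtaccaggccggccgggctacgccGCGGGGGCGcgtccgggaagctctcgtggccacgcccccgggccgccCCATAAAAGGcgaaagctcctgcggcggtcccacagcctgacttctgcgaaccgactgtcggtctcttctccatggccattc

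Areg chr14:17265592-17265891, minus strand: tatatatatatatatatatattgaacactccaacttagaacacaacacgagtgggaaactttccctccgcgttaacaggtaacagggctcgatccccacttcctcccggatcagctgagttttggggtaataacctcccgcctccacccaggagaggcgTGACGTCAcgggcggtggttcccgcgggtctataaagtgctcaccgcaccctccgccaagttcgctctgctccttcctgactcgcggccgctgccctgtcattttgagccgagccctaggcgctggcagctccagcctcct

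Counted from the start site, the single AP-1 element lay at positions -83 to -77 in Plaur and at -66 to -60 in Mmp13, while Lama3 had 3 of them, the nearest at -36 to -30. Of the 238 distinct genes called higher at 2 h (the calls are defined below), 187 had a RefSeq window, and 12 of these (6.42%) held an AP-1 element, against 329 of the 8610 genes on the array with a window (3.82%) and 1245 of all 27457 windows (4.53%). None of the 105 genes called lower with a window held one. A CArG box was found in 8 of the 187 windows of higher genes (4.28%), in 0 of the 105 windows of lower genes and in 1.42% of the windows of array genes. The cyclic AMP response element was found in 10 of the 187 (5.35%), in 5 of the 105 (4.76%) and in 2.86% of the windows of array genes, and the EGR site in 11 of the 187 (5.88%), 3 of the 105 (2.86%) and 5.17%. These matches describe letters in a short window and not binding.

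At 2 h a broad set of genes differed from the 0 h array, more of them upward than downward. Of 15866 probe sets tested with limma, 466 (2.94%) passed a Benjamini-Hochberg adjusted p of 0.05, of which 310 (1.95%) were higher and 156 (0.983%) lower at 2 h. These are referred to as called. Higher probe sets had a median difference of 1.21 on the log2 scale, from 0.52 to 4.77, and 208 of them differed by 1 (a doubling) or more. Lower probe sets had a median difference of -0.84, from -0.49 to -2.70, and 44 of them differed by 1 or more. The median over all probe sets was -0.01. Upward differences thus reached further than downward ones, with 58 higher and 4 lower probe sets at 2 or more. Counting 1 probe set per gene, 337 of 10411 genes (3.24%) were called, 219 (2.1%) higher and 118 (1.13%) lower, with a median of -0.02 over all genes.

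The replicates at 2 h lay close together beside these differences. In all 466 called probe sets both 2 h arrays lay on the same side of the 0 h array, which the call nearly requires. In 371 the gap between the 2 h arrays was under 1/3 of the difference, which the call also favours, as this pair enters the spread. The median gap between the 2 h arrays was 0.17 over all probe sets and 0.19 over the called ones. The 2 NBTII-FGFR1 arrays at 0 h, which the test does not use as controls, allowed a second look at the lone 0 h array. In 282 of the 310 higher and 147 of the 156 lower probe sets, both NBTII 2 h arrays also lay beyond both of these arrays. Over all probe sets tested, both 2 h arrays lay above all 3 arrays of 0 h in 2331 and below all 3 in 2813. The NBTII-FGFR1 mean at 0 h sat above the NBTII 0 h array by a median of 0.34 over the called higher probe sets, and differed from it by a median of -0.22 over the called lower ones, so that differences were on median smaller against that baseline. One of those arrays, the library labelled NBTII-FGFR1 0 h replicate 1, read 3.57 for Fgfr1, beside 3.58 to 4.05 on the NBTII arrays and 4.56 to 7.58 on the other NBTII-FGFR1 arrays, and so goes against its label.

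**Figure D1:**
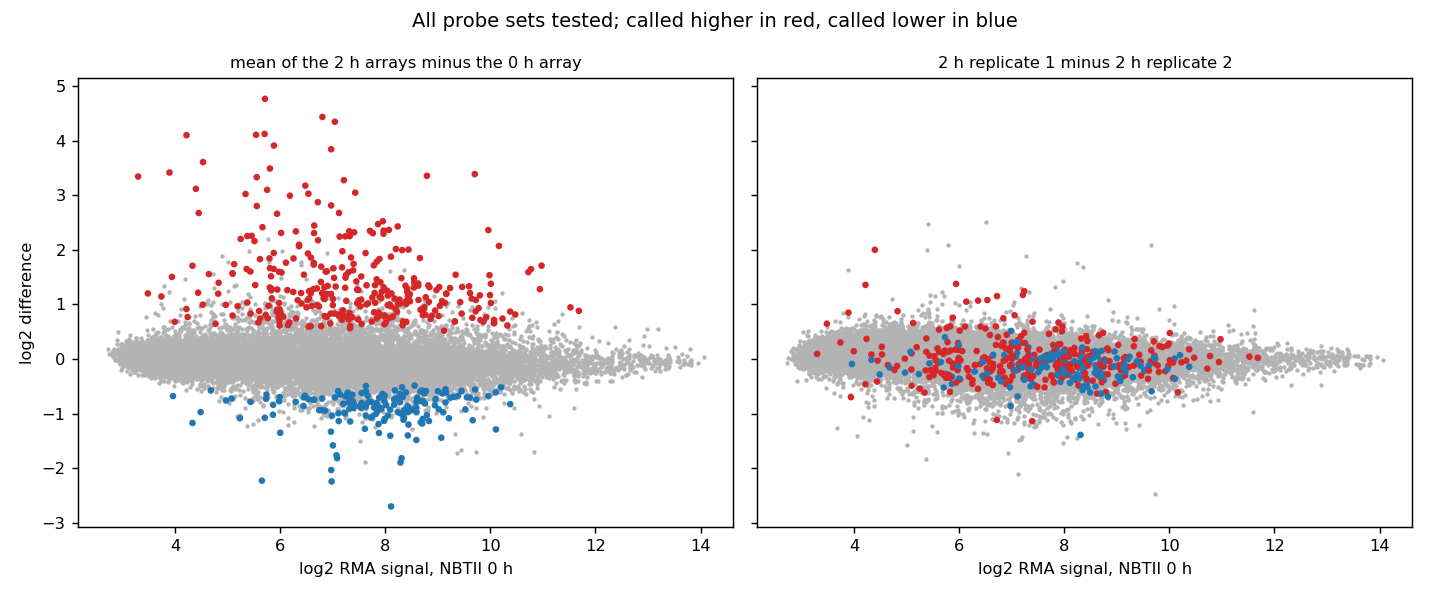
Differences against the level at 0 h for all 15866 probe sets. Each point is a probe set, the x axis is the log2 RMA signal of the NBTII 0 h array, and the y axis is the log2 difference between the 2 h mean and the 0 h array (left) or between the 2 h replicates (right), with called higher probe sets in red and called lower ones in blue. Red points reach 4.77 on the left, where the blue points reach -2.70, and most called points lie near 0 on the right.

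The number of calls depended on which arrays set the spread and on which 2 h array was used. Without NBTII 2 h replicate 1 the fit called 248 probe sets (205 higher, 43 lower), and without replicate 2 it called 578 (279 higher, 299 lower). Leaving out either NBTII-FGFR1 2 h array, which enters only through the spread, gave 759 (444 higher, 315 lower), and leaving out either NBTII-FGFR1 48 h array gave 341 (250 higher, 91 lower). With both NBTII-FGFR1 arrays that earlier results put in doubt left out (the first at 0 h and the first at 2 h) it called 706, of them 291 lower. No value is given here for the doubt about the array at 2 h. With only the 3 arrays compared, which leave 1 residual degree of freedom, 28 were called (27 higher, 1 lower). Higher probe sets outnumbered lower ones in these fits except without replicate 2. In all, 18 fits each left out 1 array of a replicate pair.

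The arrays themselves looked alike in most technical measures. Array medians lay between 6.13 and 6.21 and lower quartiles between 4.36 and 4.54 across the 21 arrays, and the 2 NBTII arrays at 2 h correlated at 0.992 over all probe sets, while replicate 2 correlated at 0.993 with NBTII-FGFR1 2 h replicate 2. The mean signal of 15 poly-A spike probe sets, control transcripts added to the RNA, was 6.35 on the NBTII 0 h array and 5.57 and 5.35 on the 2 h arrays, with 6.01 and 5.88 on the other 0 h arrays and 5.22 to 5.57 on all arrays after 0 h. The spike signal therefore moved with the 0 h condition in both lines, and its part in the differences was not tested. The 3′ minus 5′ signal of Gapdh, a measure of RNA integrity, was -0.08 at 0 h and -0.17 and -0.05 at 2 h. Of 11 epithelial markers measured, 8 lay above the array median at 0 h and 8 and 9 at 2 h. Markers of other cells were low, with 1 of 20 leukocyte markers and 0 of 11 fibroblast markers above the array median in each of the 3 arrays, and 1, 1 and 2 of 10 endothelial markers. Uroplakins, the defining membrane proteins of urothelium, were not found among the probe sets by symbol, so the bladder origin was not checked. In bulk RNA, fewer cells of a type and less RNA per cell cannot be told apart.

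The FGF receptors themselves did not pass the test. Fgfr2, a receptor found mainly on epithelial cells, read 8.20 at 0 h and 8.09 and 8.65 at 2 h, with a difference of 0.17 ± 0.36 (SE; limma adjusted p = 0.91). The 0 h array lay between the 2 h arrays. Fgfr1 read 3.97 at 0 h and 3.89 and 3.68 at 2 h, below the lower quartile of every array, where a signal is not shown to exceed background. Among 21 receptors, ligands and coreceptors measured, 1 rose (4.76%, near the 3.24% called over all genes), 0 fell and 20 did not pass. The largest difference in this list, 1.63, was among those that did not pass. The riser was Sdc1, a heparan sulfate proteoglycan that serves as a coreceptor, which read 10.94 at 0 h and 12.19 and 12.25 at 2 h (1.28 ± 0.14 SE, adjusted p = 0.00014).

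Immediate-early genes made up the list with the most calls. Of 34 measured, 16 rose, 0 fell and 18 did not pass, and the median difference was 1.01, beside -0.02 over all genes. All gene lists were drawn up with earlier results of these data known. Their counts and medians are therefore given as a description. Fosl1, which encodes the AP-1 partner FRA-1, read 7.04 at 0 h and 11.51 and 11.26 at 2 h. Both 2 h arrays lay far above the 0 h array, and the difference of 4.35 ± 0.23 (SE), a fold of 20.3, had the smallest adjusted p of the comparison (limma, 1.6e-07). Egr1, a zinc-finger factor, read 6.71 at 0 h and 9.03 and 10.14 at 2 h, a rise of 2.87 ± 0.56 (adjusted p = 0.012) in which the 2 h arrays stood apart and the NBTII-FGFR1 arrays at 0 h (9.79 and 9.63) lay between them. Klf6, a Krüppel-like factor, read 7.76 at 0 h and 9.91 and 10.23 at 2 h (2.30 ± 0.22, adjusted p = 7.5e-05).

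The AP-1 family was represented by more than Fosl1. Junb rose by 1.87 ± 0.32 (SE), Fosb by 1.5 ± 0.25 and Jun by 1.40 ± 0.28, with adjusted p of 0.0056, 0.0042 and 0.013 in the limma fit. Fos itself, the founding member, read 4.90 at 0 h and 6.50 and 7.08 at 2 h. Both 2 h arrays were higher, but the difference of 1.89 ± 0.49 had an adjusted p of 0.052 and did not pass. At 0.5 h the Fos signal had been 10.68, so the 2 h arrays caught it far below its level on that earlier array. The nuclear receptor Nr4a3 read 3.89 at 0 h, below the lower quartile, and 7.73 and 6.88 at 2 h (3.42 ± 0.52, adjusted p = 0.0022), a difference best read as a lower bound, while its other probe set differed by 0.23. Its relative Nr4a1 rose by 1.51 and the nuclear protein gene Csrnp1 by 2.26. Zfp36, an RNA-binding protein that destabilises cytokine mRNAs, read 5.79 at 0 h and 7.70 and 7.57 at 2 h (1.84 ± 0.27, adjusted p = 0.0019). The NBTII-FGFR1 arrays at 0 h read 7.66 and 7.82, level with the NBTII 2 h arrays. Its promoter is one of those printed above. Myc, a growth regulator, read 9.53 at 0 h and 10.06 and 9.99 at 2 h and did not pass (0.49 ± 0.17, adjusted p = 0.15).

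Feedback inhibitors of the FGF and ERK pathway followed. Of 16 measured, 7 rose, 0 fell and 9 did not pass, with a median of 0.71. Spry2, a Sprouty protein that inhibits receptor tyrosine kinase signalling, read 4.45 at 0 h, just below the lower quartile of that array, and 7.10 and 7.13 at 2 h. The 2 h arrays agreed closely and lay about 2.67 above the 0 h array (SE 0.16, adjusted p = 4.7e-07), a difference best read as a lower bound. Dusp5, a nuclear phosphatase of ERK, read 6.18 at 0 h and 9.01 and 9.34 at 2 h (2.99 ± 0.41, adjusted p = 0.0011). Dusp6, the cytoplasmic ERK phosphatase, was already high at 10.72 at 0 h and read 12.22 and 12.40 at 2 h (1.59 ± 0.17, adjusted p = 0.00016), and 2 of its 3 probe sets were called. Errfi1, an inhibitor of the EGF receptor family, read 6.97 at 0 h and 9.58 and 9.98 at 2 h (2.81 ± 0.38, adjusted p = 0.00089). Phlda1 rose by 2.31, the MAP kinase phosphatase Dusp1 by 1.94 and the RAS GTPase-activating protein Rasa1 by 1.0. Spry1 differed by -0.44 and did not pass (adjusted p = 0.61).

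Ligands of the EGF receptor rose while the receptors did not pass. Among 14 genes of the family, 4 rose and 0 fell, and all 4 were ligands. Hbegf, a membrane-anchored heparin-binding ligand, read 5.54 at 0 h and 9.56 and 9.73 at 2 h. Both arrays stood more than 4 log2 units above the 0 h array (4.11 ± 0.37 SE, adjusted p = 5.9e-05). Areg (amphiregulin) read 8.79 at 0 h and 11.85 and 12.45 at 2 h (3.36 ± 0.36, adjusted p = 0.00014), and Ereg (epiregulin) read 5.55 and then 8.87 and 8.89 (3.33 ± 0.48, adjusted p = 0.0015). Tgfa rose less, from 5.97 to 6.63 and 6.84 (0.76 ± 0.15, adjusted p = 0.01). For these ligands no 2 h array overlapped the 0 h array, and for Tgfa the NBTII-FGFR1 arrays at 0 h (6.77 and 6.87) overlapped the NBTII 2 h arrays. Egfr differed by 0.22, Erbb2 by -0.10 and Erbb3 by 0.02, none of which passed.

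Among 37 other growth factors and receptor kinases, 4 rose and 1 fell. Epha2, an ephrin receptor kinase, read 7.84 at 0 h and 9.73 and 9.51 at 2 h (1.78 ± 0.19, adjusted p = 0.00014). Vegfa, the angiogenic factor, read 8.63 at 0 h and 9.65 and 10.29 at 2 h (1.34 ± 0.24, adjusted p = 0.0069). The activin subunit Inhbb rose by 1.3 and the ephrin Efnb1 by 1.08, the latter not passing when either of 2 single arrays was left out (adjusted p = 0.051 without NBTII 2 h replicate 1 and 0.089 without replicate 2). Pdgfa, a platelet-derived growth factor chain, was the member that fell (-0.97 ± 0.22, adjusted p = 0.03).

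**Figure D2:**
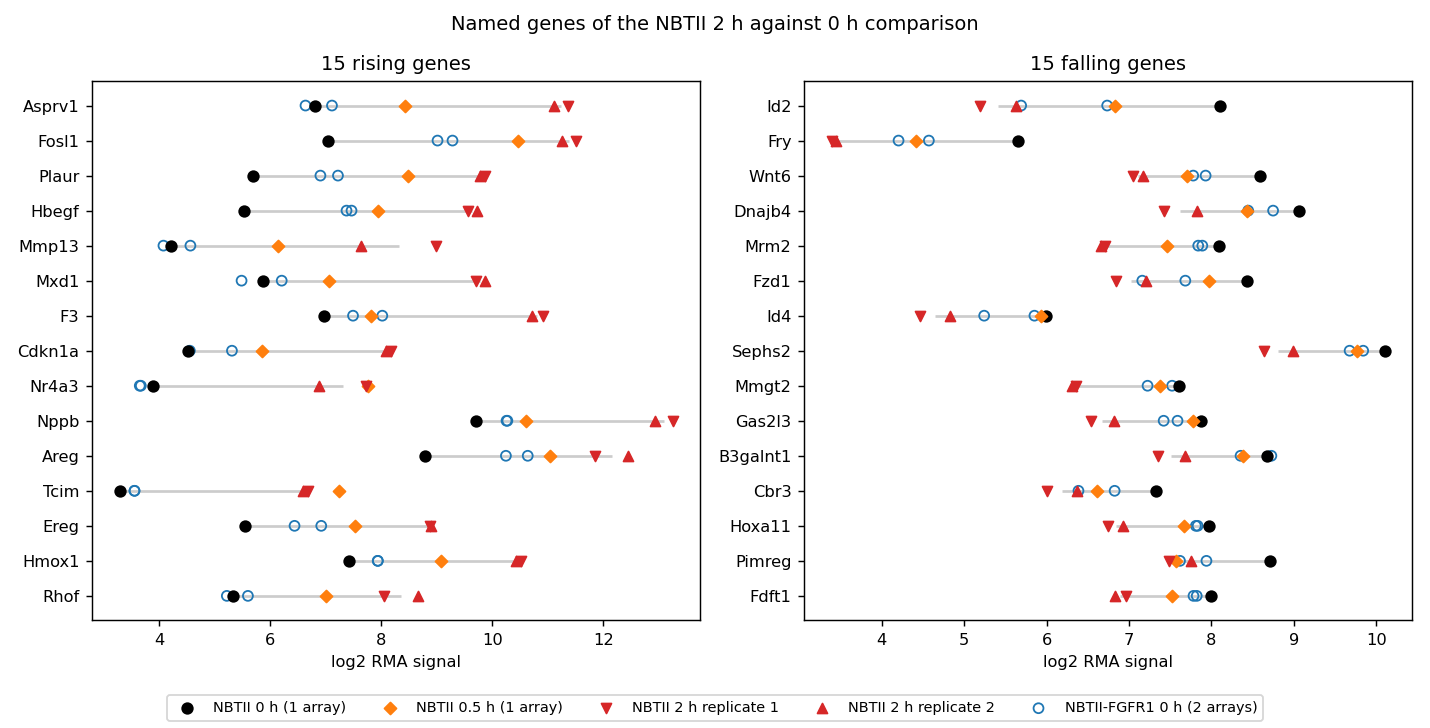
Log2 RMA signal on single arrays for the 15 genes with the largest rises (left) and the 15 with the largest falls (right) among called genes with a symbol whose 2 h arrays differed by under 1/3 of the mean difference, which leaves out Plau (3.28). Black circles are the NBTII 0 h array, orange diamonds the NBTII 0.5 h array, red triangles the 2 NBTII 2 h arrays, open blue circles the 2 NBTII-FGFR1 0 h arrays, and grey lines join the 0 h value to the 2 h mean. Rises span 4.43 (Asprv1) to 3.02 (Rhof), falls span -2.70 (Id2) to -1.10 (Fdft1), and for Id2 and Cbr3 a red triangle lies close to a blue circle.

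Large rises were found in a list drawn up for pericellular proteolysis. Of 30 measured, 7 rose, 0 fell and 23 did not pass, with a median of 0.30. The 7 include Asprv1, for which action outside the cell was not tested. Asprv1, a retroviral-like aspartic protease of stratified epithelium, read 6.80 at 0 h and 11.36 and 11.11 at 2 h, the largest rise of a named gene (4.43 ± 0.49 SE, adjusted p = 0.00016). Plaur, the urokinase receptor, read 5.70 at 0 h and 9.87 and 9.78 at 2 h (4.12 ± 0.42, adjusted p = 0.00014) on one probe set, while its other probe set differed by 0.17. Plau, the urokinase that binds this receptor, read 7.21 at 0 h and 11.07 and 9.90 at 2 h (3.28 ± 0.31, adjusted p = 7.5e-05). Receptor and protease thus rose together, with replicate 1 higher than replicate 2 for Plau. Mmp13, a collagenase, read 4.21 at 0 h, below the lower quartile, and 8.99 and 7.64 at 2 h, again with replicate 1 higher (4.10 ± 0.63, adjusted p = 0.0024). The difference for Mmp13 is best read as a lower bound.

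The other proteolysis genes that rose were Plat, the tissue plasminogen activator (2.25 ± 0.46), the membrane-bound metalloprotease Mmp14 (1.23 ± 0.26) and the metalloprotease inhibitor Timp1 (1.03 ± 0.25). Mmp9, a gelatinase, differed by 1.0 ± 0.35 and did not pass (limma adjusted p = 0.16). Mmp3 (stromelysin) read 3.90 at 0 h and 4.77 and 4.42 at 2 h, around the lower quartile (0.69 ± 0.54, adjusted p = 0.64). F3, the tissue factor that starts blood coagulation, was outside the list and read 6.97 at 0 h and 10.91 and 10.71 at 2 h (3.84 ± 0.35, adjusted p = 6.6e-05).

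Inflammatory mediators showed fewer calls, with 5 of 34 rising, 0 falling and a median of 0.24. Ptgs2, the inducible cyclooxygenase, read 7.86 at 0 h and 10.29 and 10.37 at 2 h (2.47 ± 0.30, adjusted p = 0.00042). Cx3cl1, a membrane-anchored chemokine, read 7.35 at 0 h and 9.11 and 9.30 at 2 h (1.86 ± 0.30, adjusted p = 0.0033). It read 7.15 on the 0.5 h array and 6.73 and 6.96 at 6 h, so the 2 h arrays stood above both neighbouring times. The chemokine Ccl2 rose by 2.20 ± 0.56 with an adjusted p of 0.048. The NF-kB subunits Nfkb2 and Relb rose by 1.31 ± 0.27 and 0.83 ± 0.21, and both lost the call without NBTII 2 h replicate 1 (adjusted p = 0.082 and 0.23), Relb in 13 of the 18 fits that left out 1 array. Il6 differed by 0.44 and Tnf by -0.06, and neither passed.

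Regulators of proliferation moved in both directions. Cdkn1a, which encodes the cyclin-dependent kinase inhibitor p21, rose on both of its probe sets. One read 4.53 at 0 h and 8.18 and 8.09 at 2 h (3.61 ± 0.62, adjusted p = 0.0056), and the other read 7.62 and then 9.30 and 9.82 (1.94 ± 0.38, adjusted p = 0.012). Mdm2, the ubiquitin ligase of p53, rose by 1.06 ± 0.21. Cdkn1b, which encodes the inhibitor p27, fell by 0.57 on the log2 scale (SE 0.15, adjusted p = 0.048) and lost the call in 15 of the 18 fits without 1 array, and its other probe set differed by 0.12. These were the 3 calls among 18 cell cycle inhibitors and p53 targets.

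In a list of 21 genes drawn up for G1 cyclins and the MYC network, 3 rose and 1 fell. The fall was Id2, described below, and the rises included the enzyme gene Odc1. Neither encodes a cyclin or a MAX partner. Mxd1, a MAX partner that opposes MYC, read 5.88 at 0 h and 9.71 and 9.86 at 2 h (3.91 ± 0.62, adjusted p = 0.0033). Mxi1, a related MAX partner, read 7.97 at 0 h and 10.38 and 10.26 at 2 h (2.35 ± 0.34, adjusted p = 0.0016). Both MYC-opposing genes were thus higher on both 2 h arrays. Odc1, the rate-limiting enzyme of polyamine synthesis, read 10.77 and then 12.45 and 12.39 (1.65 ± 0.18, adjusted p = 0.00017). Ccnd1, the G1 cyclin D1, differed by 0.56 and did not pass (adjusted p = 0.23).

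Id2 showed the largest fall of the comparison. This inhibitor of basic helix-loop-helix factors read 8.11 at 0 h and 5.19 and 5.63 at 2 h (-2.70 ± 0.57, limma adjusted p = 0.019), and its second probe set was also called (-2.03). The NBTII-FGFR1 arrays at 0 h read 6.73 and 5.69, so that one of them lay next to the NBTII 2 h arrays, and the call was lost without NBTII 2 h replicate 1 (adjusted p = 0.095). Id4, a relative, read 6.00 at 0 h and 4.47 and 4.82 at 2 h on the probe set that fell (-1.35 ± 0.24, adjusted p = 0.007). Its other probe set differed by -0.96 and did not pass, and Id1 differed by -1.05 ± 0.34 (adjusted p = 0.11). Id3 differed by 0.96 (adjusted p = 0.26).

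The lists for mitosis, ribosome biogenesis, DNA replication and cholesterol synthesis had no calls at 2 h, with differences mostly below 0. Over all genes 3.24% were called, so lists of this size can hold no call without standing apart. In limma 0 of 25 mitosis genes were called, 22 lay below 0, the median was -0.43 and 16 had an unadjusted p under 0.05. The lowest were Hmmr (-0.91 ± 0.29, adjusted p = 0.11), a spindle and hyaluronan-binding protein, and the mitotic kinesin Kif20a (-0.90 ± 0.26, adjusted p = 0.082). The mitotic cyclin Ccnb1 differed by -0.73 ± 0.20 (adjusted p = 0.075). For ribosome biogenesis 0 of 35 were called, 32 lay below 0, the median was -0.28 and 15 had an unadjusted p under 0.05. Wdr43, a factor of small-subunit assembly, was the lowest at -0.84 ± 0.23 (adjusted p = 0.063). For DNA replication 0 of 28 were called, 22 lay below 0 and 5 had an unadjusted p under 0.05 (median -0.19). Over all 15866 probe sets tested, 2406 had an unadjusted p under 0.05 in limma, a share near that of the DNA replication list. The share of all genes below 0 was not counted, and their median was -0.02. For cholesterol synthesis and uptake 0 of 21 were called by the probe set that stands for each gene, 18 lay below 0 and 5 had an unadjusted p under 0.05 (median -0.36). Fdft1 (squalene synthase) fell on a second probe set (-1.10 ± 0.24, adjusted p = 0.022), which read 7.99 at 0 h and 6.96 and 6.83 at 2 h, and its representing probe set differed by -1.38 ± 0.37 (adjusted p = 0.061).

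**Figure D3:**
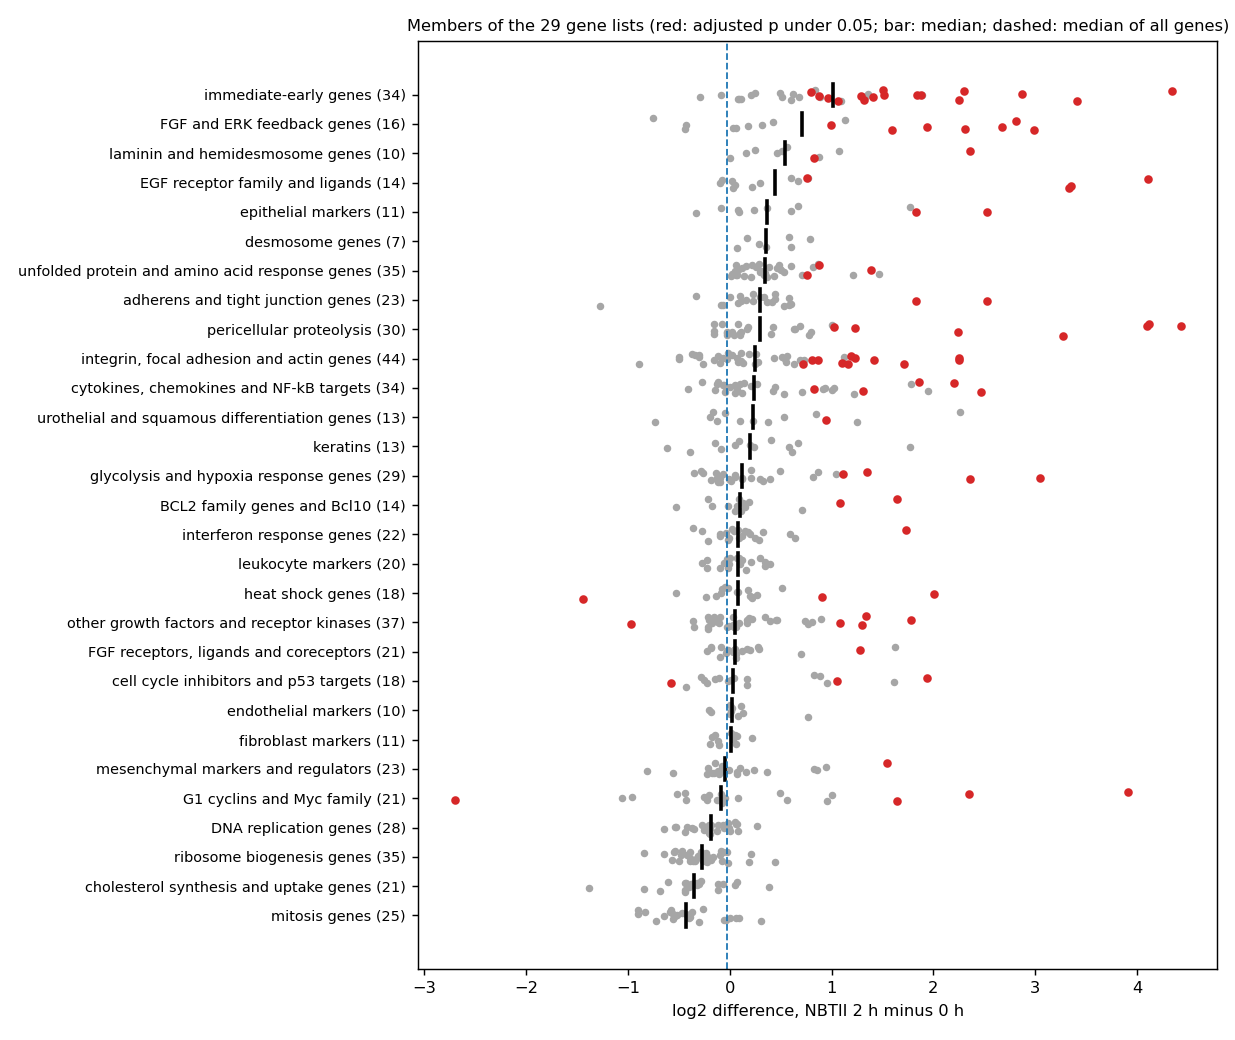
Log2 differences (x axis, NBTII 2 h minus 0 h) of the measured members of 29 gene lists (rows, with the number measured). Each point is a gene, red where the limma adjusted p is under 0.05, black bars are list medians and the dashed line is the median of all genes (-0.02). Immediate-early genes have the highest median (1.01) and mitosis genes the lowest (-0.43), where no point is red.

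No epithelial junction gene was called lower at 2 h, beside 1.13% of all genes. Cdh1, which encodes the adherens junction protein E-cadherin, read 7.89 at 0 h and 9.85 and 9.59 at 2 h, a rise of 1.83 ± 0.30 (adjusted p = 0.0042). Cldn4, a tight junction claudin, read 7.95 at 0 h and 10.73 and 10.22 at 2 h (2.52 ± 0.30, adjusted p = 0.00028). They were the 2 calls among 23 adherens and tight junction genes (median 0.30). Both 2 h arrays were above the 0 h array for Cdh1 and for Cldn4. Of the 23 genes, 18 lay above 0, and the lowest difference, which did not pass, was -1.28. All 7 desmosome genes measured lay above 0 and 0 were called (median 0.35), beside 3.24% called over all genes. The desmosomal plaque protein Dsp read 10.73 and then 11.23 and 11.42 (0.60 ± 0.18, adjusted p = 0.097), and Jup (plakoglobin) read 10.89 and then 11.48 and 11.46 (0.58 ± 0.16, adjusted p = 0.074). Of 13 keratins 0 were called, beside the same 3.24%. Krt8 differed by 0.67 ± 0.34 (adjusted p = 0.38) and Krt18 by 1.77 ± 0.72 (adjusted p = 0.24).

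Among 23 mesenchymal markers and regulators measured, 1 rose (4.35%, near the 3.24% called over all genes) and 0 fell, with a median of -0.04. The riser was Cd44, a hyaluronan receptor that epithelial cells also carry, which read 9.34 at 0 h and 11.06 and 10.70 at 2 h (1.54 ± 0.19, adjusted p = 0.00047). Vim (vimentin) read 7.11 at 0 h and 5.24 and 7.35 at 2 h, so its replicates lay on opposite sides of the 0 h array (-0.81 ± 0.88, adjusted p = 0.78). Fn1 (fibronectin) read 8.67 at 0 h and 9.25 and 9.99 at 2 h (0.94 ± 0.33, adjusted p = 0.15). Snai1, a repressor of E-cadherin, read 5.35 at 0 h and 5.57 and 5.26 at 2 h (0.07 ± 0.19, adjusted p = 0.94), and Snai2 was not measured.

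Matrix-contact and cytoskeletal genes held more calls. Of 10 laminin and hemidesmosome genes, 2 rose and all 10 lay above 0 (median 0.54). Lama3, the alpha chain of laminin-332, read 8.07 at 0 h and 10.29 and 10.58 at 2 h (2.36 ± 0.28, adjusted p = 0.00028), and Lamc1, the gamma-1 chain of other laminins, rose by 0.83 ± 0.18. The NBTII-FGFR1 arrays at 0 h read 7.92 and 8.26 for Lamc1, level with 7.76 and 7.97 on the NBTII 2 h arrays. Among 44 genes of integrins, focal adhesions and the actin network, 11 rose, 0 fell and 33 did not pass, with a median of 0.25. Rhob, a small GTPase that acts on the actin cytoskeleton, read 5.37 at 0 h and 7.81 and 7.44 at 2 h (2.25 ± 0.39, adjusted p = 0.006). Zyx, which encodes the focal adhesion protein zyxin, read 7.32 and then 9.52 and 9.63 (2.25 ± 0.39, adjusted p = 0.0055). Fhl2, a LIM-domain protein of focal adhesions, rose by 1.72 ± 0.25, and the non-muscle myosin heavy chain Myh9 rose by 1.19.

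Vcl, which encodes vinculin, a linker of integrins to actin, read 8.42 at 0 h and 9.85 and 9.43 at 2 h (1.23 ± 0.20, adjusted p = 0.0033). The NBTII-FGFR1 arrays at 0 h read 9.58 and 9.72, level with the NBTII 2 h arrays rather than with the NBTII 0 h array. Among further members, Pdlim7 rose by 1.42, Tes by 1.16, Flna by 1.11, Msn by 0.87, Vasp by 0.81 and Actn4 by 0.72, all of them actin-binding or LIM-domain proteins. Tpm1 (tropomyosin) differed by -0.89 ± 0.35 and did not pass (adjusted p = 0.22). Rhof, an actin-regulating GTPase outside the list, read 5.34 at 0 h and 8.05 and 8.67 at 2 h (3.02 ± 0.64, adjusted p = 0.019), and lost the call without NBTII 2 h replicate 2 (adjusted p = 0.065).

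Stress and metabolic genes gave isolated strong rises. Hmox1, the heme oxygenase, read 7.43 at 0 h and 10.51 and 10.44 at 2 h (3.05 ± 0.33, adjusted p = 0.00016). Ndrg1, a stress-responsive gene, read 9.96 and then 12.44 and 12.20 (2.36 ± 0.33, adjusted p = 0.0014). With the glucose transporter Slc2a1 (1.35 ± 0.19) and the hexokinase Hk2 (1.11 ± 0.23), they were the 4 rises among 29 glycolysis and hypoxia response genes (median 0.12), where glycolytic enzymes such as Pgk1 (-0.01) and Ldha (0.05) did not pass. Among 18 heat shock genes 2 rose and 1 fell. Hspb8, a small heat shock protein, read 8.44 at 0 h and 10.61 and 10.28 at 2 h (2.00 ± 0.24, adjusted p = 0.00029). Its partner Bag3 rose by 0.90 ± 0.21 and lost the call in 4 of the 18 fits that left out 1 array. The cochaperone Dnajb4 fell from 9.06 to 7.42 and 7.82 (-1.44 ± 0.24, adjusted p = 0.0044).

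All 35 genes of the unfolded protein and amino acid response lay above 0 (median 0.35), and 3 rose. These were the transcription factor Cebpb (1.38 ± 0.32) and the endoplasmic reticulum chaperones Hyou1 (0.88 ± 0.19) and Calr (0.76 ± 0.19), with limma adjusted p of 0.032, 0.022 and 0.045. The central chaperone Hspa5 differed by 1.21 ± 0.36 and did not pass (adjusted p = 0.09). Leaving out 1 array ended the call of Cebpb in 2, of Hyou1 in 2 and of Calr in 12 of 18 fits.

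A list of 14 genes, the BCL2 family and the adaptor Bcl10, had 2 rises. Bcl2l11, which encodes the pro-apoptotic BIM, read 5.36 at 0 h and 6.90 and 7.11 at 2 h on 1 of 3 probe sets (1.65 ± 0.36, adjusted p = 0.021), the others differing by 0.03 and 0.19. Bcl10, an adaptor of NF-kB signalling and not a member of the family, rose by 1.09 ± 0.25. Interferon response genes had 1 call among 22 (4.55%, near the 3.24% called over all genes). It was Isg20 (1.74 ± 0.44, adjusted p = 0.049), whose call was lost in 13 of 18 fits. Of 13 urothelial and squamous differentiation genes, 1 rose, the 14-3-3 protein Sfn (0.95 ± 0.17, adjusted p = 0.007), from 11.52 to 12.49 and 12.45. Of the rises above, Hk2 lost the call without NBTII 2 h replicate 1 (limma adjusted p = 0.064), Lamc1 and Bcl10 lost it without replicate 2 (0.074 and 0.10), and Bag3 (0.079 and 0.075) and Bcl2l11 (0.060 and 0.063) lost it without either. None of the 20 leukocyte, 10 endothelial or 11 fibroblast markers was called, beside 3.24% over all genes.

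Further large rises lay outside the lists. Nppb, which encodes the B-type natriuretic peptide, was high throughout, at 9.70 at 0 h and 13.25 and 12.93 at 2 h (3.39 ± 0.43, adjusted p = 0.00059). Tcim, a small regulatory protein, read 3.29 at 0 h, below the lower quartile, and 6.68 and 6.59 at 2 h (3.34 ± 0.39, adjusted p = 0.00025), again a lower bound.

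Named falls were smaller than named rises. Fry, which encodes a large microtubule-binding scaffold, read 5.65 at 0 h and 3.39 and 3.45 at 2 h (-2.23 ± 0.32, adjusted p = 0.0015), reaching the range below the lower quartile, and its other probe set differed by 0.03. The WNT ligand Wnt6 read 8.59 at 0 h and 7.05 and 7.16 at 2 h (-1.48 ± 0.22, adjusted p = 0.0018). The WNT receptor Fzd1 read 8.43 and then 6.84 and 7.21 (-1.40 ± 0.25, adjusted p = 0.007). A WNT ligand and a WNT receptor were thus both lower on both 2 h arrays, though for Fzd1 1 NBTII-FGFR1 array at 0 h (7.16) overlapped them.

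Mrm2, a mitochondrial rRNA methyltransferase, had the smallest adjusted p among the 15 named falls. It read 8.09 at 0 h and 6.71 and 6.66 at 2 h (-1.41 ± 0.15, adjusted p = 0.00016), and both 2 h arrays lay below both NBTII-FGFR1 arrays at 0 h (7.89 and 7.84). Sephs2, an enzyme of selenophosphate synthesis, read 10.10 and then 8.63 and 8.99 (-1.29 ± 0.24, adjusted p = 0.0082). Mmgt2, a membrane magnesium transporter, read 7.61 and then 6.35 and 6.31 (-1.28 ± 0.22, adjusted p = 0.0064). The homeobox gene Hoxa11 read 7.97 and then 6.75 and 6.93 (-1.13 ± 0.23, adjusted p = 0.015). Gas2l3, B3galnt1, Cbr3 and Pimreg completed the named falls, with differences of -1.19, -1.16, -1.15 and -1.10. For Pimreg an NBTII-FGFR1 array at 0 h (7.62) lay between the 2 h arrays (7.48 and 7.75). The call of B3galnt1 was lost in 7 of the 18 fits that left out 1 array. Of the 15 named falls, Id2, Sephs2, Gas2l3, B3galnt1, Cbr3, Hoxa11, Pimreg and Fdft1 lost the call without NBTII 2 h replicate 1 (adjusted p from 0.056 to 0.18), and Fdft1 also lost it without replicate 2 (0.064).

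The neighbouring times placed the 2 h levels within the course of the parental line. For the 310 higher probe sets the 0.5 h array lay below both 2 h arrays in 236, between them in 29 and above both in 45, and it lay at or below the 0 h array in 15. The 6 h arrays both lay below both 2 h arrays in 146, above both in 64, and overlapped in 100. Over all probe sets these shares were 20.1% below and 20.3% above, but the probe sets here were chosen for high levels at 2 h, so the counts are given as a description. For the 156 lower probe sets the 0.5 h array lay above both 2 h arrays in 140, and both 6 h arrays lay above both 2 h arrays in 112 and below both in 14.

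Single genes followed different courses. Fos, Egr1, Zfp36, Rhob and Bcl2l11 were highest on the 0.5 h array, at 10.68, 11.36, 10.09, 8.12 and 8.69, and the 2 h arrays lay below that level. Nr4a3 and Tcim were high at 0.5 h (7.76 and 7.23) and at 2 h and had returned to 3.88 and 4.14, and to 3.86 and 3.84, on the 6 h arrays. Fosl1 (10.86 and 10.91 at 6 h) and Spry2 (6.87 and 6.98) stayed close to their 2 h levels. Lama3 (10.95 and 10.97 at 6 h), Odc1 (12.68 and 12.85) and Tgfa (7.85 on both) read higher at 6 h than at 2 h, as did Mmp13 (9.39 and 9.32). Wnt6 (7.76 and 7.96 at 6 h) and Mrm2 (7.81 and 7.64) read higher at 6 h than at 2 h, whereas Id2 (4.65 and 5.75) and Fdft1 (6.18 and 6.2) did not.

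**Figure D4:**
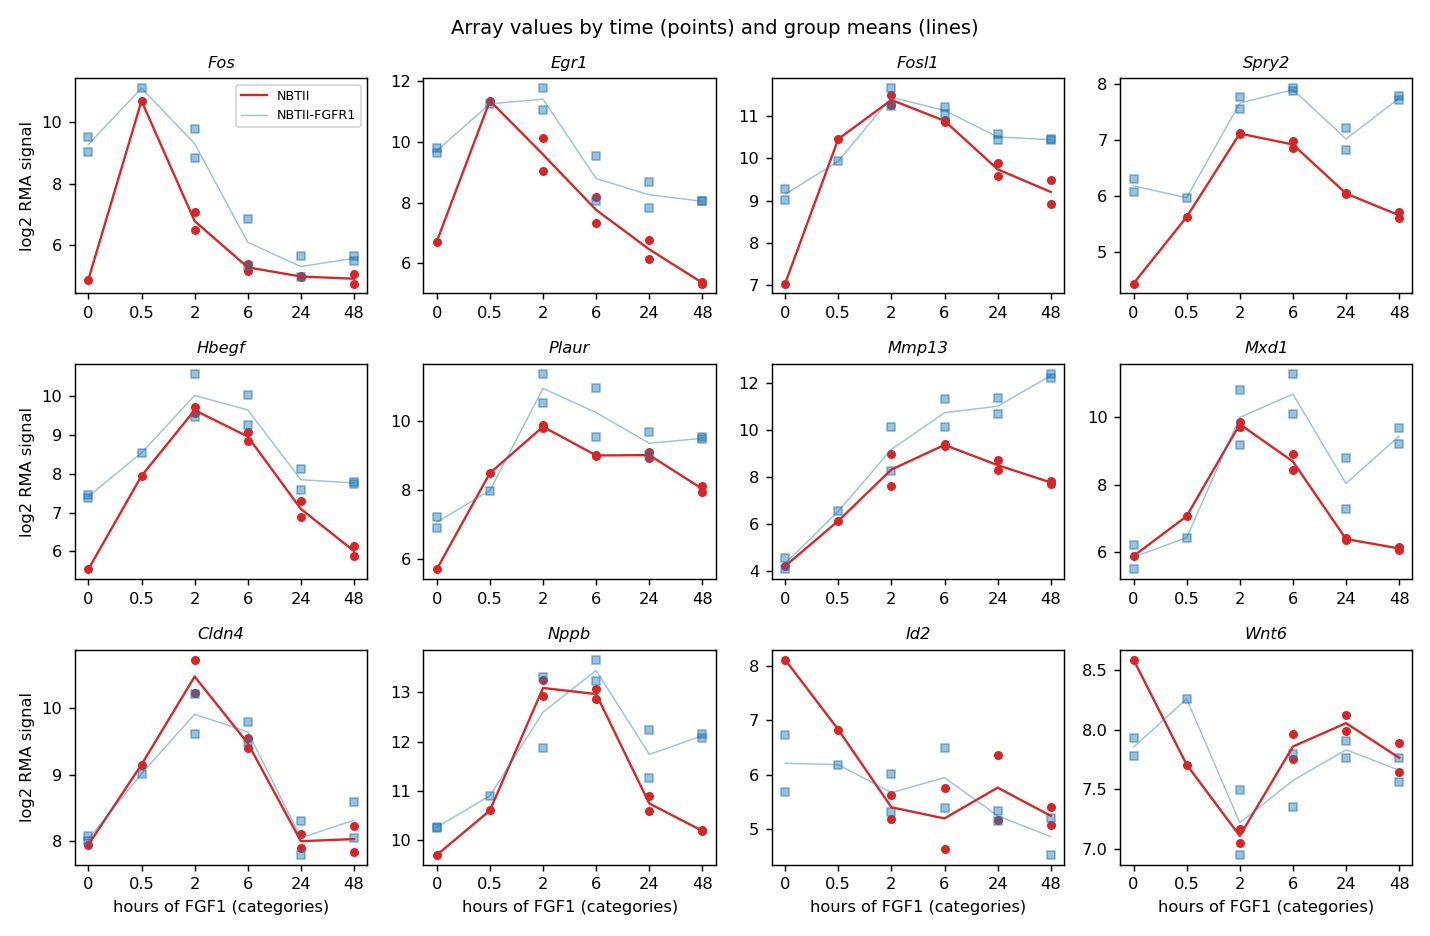
Log2 RMA signal (y axis, own scale per panel) of 12 genes by hours of FGF1 (x axis, evenly spaced categories). Red points are NBTII arrays, blue squares NBTII-FGFR1 arrays, and lines join group means. Fos and Egr1 peak on the 0.5 h NBTII array (10.68 and 11.36), Spry2 and Hbegf at 2 h, and Wnt6 is lowest at 2 h (7.05 and 7.16).

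The same contrast in NBTII-FGFR1, which shares no array with the parental one, was used to see where the parental response differed. At 2 h, 1483 probe sets (9.35%) were called in NBTII-FGFR1, 836 (5.27%) higher and 647 (4.08%) lower. Both NBTII-FGFR1 arrays put in doubt above took part in this contrast. That line has 2 arrays at 0 h and so a smaller error, and the counts of the lines are therefore not compared. Of the 310 probe sets higher in NBTII, 216 (69.7%) were also called higher in NBTII-FGFR1, 0 were called lower and 299 had the same sign. These 216 were 25.8% of the probe sets called higher in NBTII-FGFR1. Of the 156 lower in NBTII, 77 (49.4%) were also called lower, 0 were called higher and 145 had the same sign, and the 77 were 11.9% of those called lower in NBTII-FGFR1. Across the 466 called probe sets the differences of the lines correlated at 0.87, and across all probe sets at 0.63. These are correlations across genes, which are not independent, and the lines share the normalization and the spike difference between 0 h and later arrays. Both contrasts also took the spread of each probe set from the same fit. The calls shared by the lines are therefore not from independent tests.

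The size of the difference was larger in NBTII for 212 of the 310 higher and 138 of the 156 lower probe sets, which were chosen on the NBTII value. In NBTII-FGFR1 the median difference of these sets was 0.96 and -0.51. The test of the difference between lines, fitted as a line by time term in limma, called 0 of 15866 probe sets (0.0%), with 1264 (7.97%) at an unadjusted p under 0.05 and a median SE of 0.22. It called 4 with a trended robust variance, 13 with the replicate number as a block, 30 without NBTII 2 h replicate 2 and 140 without NBTII-FGFR1 2 h replicate 2. A miss of the threshold does not show that the lines responded alike.

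The smallest adjusted p of that test was 0.060, and Fosl1 and Vcl were among the probe sets at that value. Fosl1 differed by 4.35 in NBTII and 2.30 in NBTII-FGFR1, where the 0 h arrays read 9.01 and 9.28 against 7.04 in NBTII. For Vcl the differences were 1.23 and -0.40. For Spry2 they were 2.67 and 1.47, with 6.07 and 6.30 on the NBTII-FGFR1 arrays at 0 h against 4.45 (adjusted p = 0.074), where the NBTII value is a lower bound. For these 3 genes the gap between the lines was larger at 0 h than at 2 h. Fos read 9.52 and 9.03 on the NBTII-FGFR1 arrays at 0 h, against 4.90 in NBTII, and differed there by 0.02 at 2 h (adjusted p of the line by time term 0.47). Asprv1 differed by 4.43 in NBTII and 4.67 in NBTII-FGFR1, Hmox1 by 3.05 and 3.02, and Nr4a3 by 3.42 and 3.52. Mmp3 differed by 0.69 in NBTII and by 4.03 in NBTII-FGFR1 without passing the test of the difference (adjusted p = 0.14).

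**Figure D5:**
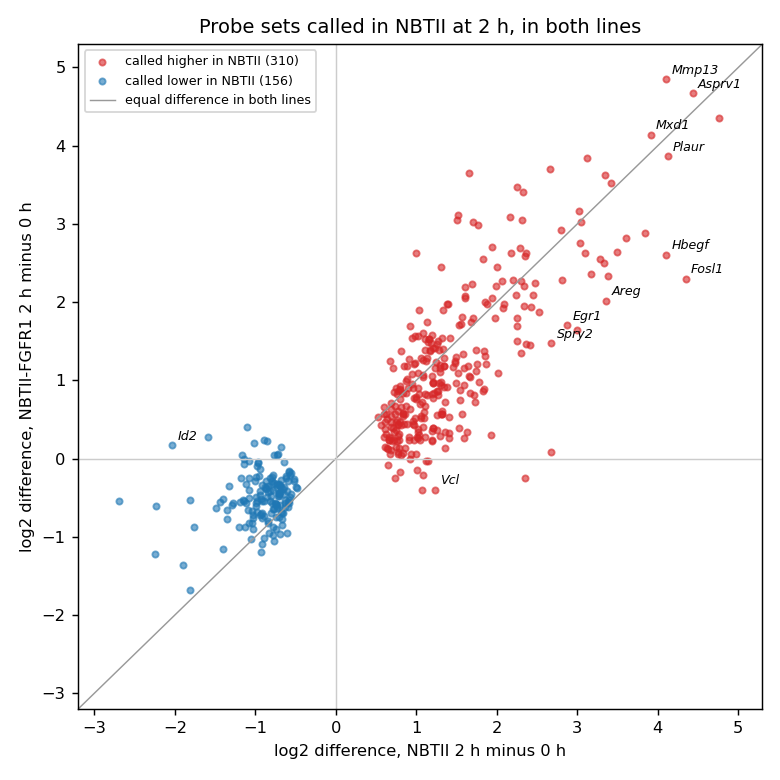
Log2 differences at 2 h against 0 h in NBTII (x axis) and NBTII-FGFR1 (y axis) for the 466 probe sets called in NBTII. Points are probe sets, red called higher and blue called lower in NBTII, and the diagonal marks equal differences. Of the red points 299 of 310 lie above 0 on the y axis and of the blue 145 of 156 lie below it, while Fosl1 (4.35 and 2.30) and Vcl (1.23 and -0.40) lie under the diagonal.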

How the data were processed

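RNA of NBTII and NBTII-FGFR1 cells was hybridised to 21 Affymetrix rat arrays. Values are log2 signals deposited by the authors in 1 table of 15923 probe sets, made with RMA (background correction, quantile normalization and probe set summary), per the submitters' processing notes, with a version not given in the sources used here. RMA forces like distributions on all arrays, so a general shift in RNA would not be seen, and the scanner files were not used here.

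The 57 control probe sets took no part in any test. Of the 15866 tested, 12783 carry 1 symbol in the platform annotation, 312 several and 2771 none, and 12748 matched RefSeq by gene ID. One linear model of the 12 groups was fitted over the 21 arrays with limma 3.58.1 (R 4.3.3, eBayes), 9 groups having 2 arrays and 3 having 1, so 9 residual degrees of freedom, and p-values were adjusted by Benjamini-Hochberg over all probe sets. A call is an adjusted p under 0.05. Errors after ± are standard errors of that model. The precision is limited by the number of arrays. Tables and figures used Python 3.11.15, pandas 2.3.3, numpy 2.4.6 and matplotlib 3.10.9. On simulated data of this design the fit recovered 78% of 200 planted differences of 1 on the log2 scale. It recovered 99.5% of 200 planted differences of 2, and 4.05% of calls were false. The simulated noise was independent and of equal spread on all arrays of a probe set, the 0 h array included. The simulation therefore cannot show how many calls are false if the lone 0 h array varies otherwise.

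Members and gene lists were chosen with earlier results of these data known. Named genes were the 15 rises and 15 falls of largest difference among called probe sets with 1 symbol whose 2 h arrays differed by under 1/3 of the mean difference (symbols starting LOC or RGD passed over), up to 4 called members per list by p, and 20 fixed genes, of which 19 were measured, and any called gene with the 5 largest line by time differences each way, of which there were none. Further list members with their values are named as examples. The probe set with the highest mean stood for a gene in lists. A repeated quantile normalization, a filter on dim probe sets, fewer arrays, other variance models, array weights, a replicate block and each array left out in turn were tried. Whether replicate numbers pair the arrays was checked.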

Additional observations from a re-analysis of the deposited data

How the results depend on the processing

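Across the alternatives the parental response at 2 h kept its excess of higher calls except where stated. Beside 466 calls (310 higher, 156 lower), a repeated quantile normalization gave 505, leaving out dim probe sets 502, only the NBTII arrays 599, a trended robust variance 423 and array weights 490, all within 1.5 times. Only the arrays compared gave 28 (27 and 1), and 12 list genes beside 82. With both doubted NBTII-FGFR1 arrays removed (the first at 0 h and the first at 2 h) the fit called 706, of them 291 lower. Leaving out 1 array gave 248 to 759 calls, 205 to 444 higher and 43 to 315 lower, and 62 to 109 list genes, the extremes being without NBTII 2 h replicate 1 and without either NBTII-FGFR1 2 h array for the calls. The line by time difference had 0 calls, 4 with a trended robust variance, 1 without both doubted arrays, and 0 to 140 without 1 array.

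A replicate block gave 523 calls (335 higher, 188 lower) and 13 for the line by time difference, and changed 1 named call, but it is not established that the numbers pair the arrays. Same-numbered deviations correlated at -0.13 to 0.35 (median 0.02) over 36 pairs of groups, with 15 over 0.1, though all 6 pairs among the NBTII groups lay between 0.115 and 0.232, and the lone 0 h array has no partner.

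Of 74 called named probe sets, 52 kept the call in all 18 fits without 1 array and 22 lost it in at least 1. With only the arrays compared 57 lost it, a fit with 1 residual degree of freedom. No called named gene changed sign under these alternatives. The uncalled genes that did were Fgfr2 (-0.11 to 0.447 over the fits without 1 array, below 0 without NBTII 2 h replicate 2), Vim (-1.87 to 0.24) and Snai1 (-0.083 to 0.22), the last pair turning without NBTII 2 h replicate 1. Levels below the lower quartile are not shown to exceed background. By the level at 0 h this limits 13 higher and 2 lower calls. Falls that reach that range only at 2 h, such as Fry, are not in this count.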

Other observations

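The following genes belong to none of the lists and were chosen after their values were seen, so they carry no theme and are given as values of the same limma fit. Among called rises were Trib1, a pseudokinase scaffold (2.80), Fst, which encodes the activin antagonist follistatin (2.68 and 2.35 on its probe sets), Arg1, the urea cycle arginase (2.66), Pvr, the poliovirus receptor and nectin-like adhesion molecule (2.43), the sulfiredoxin Srxn1 (2.32), Procr, the endothelial protein C receptor (2.09), the histone demethylase Kdm6b (2.07), Txnrd1, the thioredoxin reductase (1.99 and 1.85), the proprotein convertase Furin (1.66) and the receptor Notch1 (1.60 and 1.28). Among called falls were the mitochondrial ribosomal protein genes Mrpl1 (-1.12), Mrpl50 (-1.04 and -1.03) and Mrpl16 (-0.92), the succinate dehydrogenase assembly factors Sdhaf2 (-1.11) and Sdhaf3 (-0.99), the nucleolar protein gene Mphosph10 (-1.20), the clock-controlled factor Dbp (-1.02) and Hoxa10 (-0.93). The largest difference of all, 4.77, belonged to a probe set without a gene symbol in the annotation used.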
